A study of Mus musculus with 11 samples.

Results

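The 9 complement genes C1qa, C1qb, C1qc, C1ra, C1s1, Serping1, C4b, C3 and Cfb were followed through all libraries of a comparison between wild-type (WT) mice and mice that lack the microRNA miR-211. They were chosen by name, as the components and regulators of the complement cascade with Cfd, a major transcript of fat cells, left out, and they make up 9 of the 38393 genes listed for each library. All 9 passed the expression filter and were among the 15767 genes tested. RNA came from the whole eye after the lens and cornea had been taken off, which leaves retina, retinal pigment epithelium (RPE), choroid, sclera and ciliary body. The mice were 1–2 months old and on the C57BL/6 background, which the study's methods give as C57Bl/6J. The 5 WT libraries came from miR-211+/+ littermates matched by age, and the 6 knockout (KO) libraries from miR-211-/- animals of a single line, in which the precursor of the microRNA is deleted in every cell. Per the study's methods all 6 KO animals were male, whereas 2 of the WT animals were male and 3 female, so that sex and genotype are partly confounded.

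Complement is a cascade of blood-borne and locally made proteins that tag cells, debris and microbes. In the classical pathway C1q, built from 3 kinds of chain, binds a surface and activates the proteases C1r and C1s, which cut C4 and C2, and the resulting convertase cuts C3. Factor B, encoded by Cfb, forms the C3 convertase of the alternative pathway, and C1 inhibitor, encoded by Serping1, blocks C1r and C1s. In the nervous system C1q is made chiefly by microglia and macrophages, while the C1 proteases, C1 inhibitor and C3 are also made by glia, fibroblasts and vascular cells, and in retina and RPE the cascade is known for its part in synapse pruning and in macular degeneration.

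Mature miR-211-5p is the product that the KO line lacks, and miR-204-5p, which is abundant in the eye and encoded elsewhere, is its close relative. Both are printed to show the stretch by which a microRNA recognises its targets, and the capitals mark the seed, bases 2 to 8 (RefSeq, GRCm38.p6).
mmu-miR-211-5p: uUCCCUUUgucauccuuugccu
mmu-miR-204-5p: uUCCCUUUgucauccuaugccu
The first lies on chromosome 7 from 64205831 to 64205852 and the second on chromosome 19 from 22750610 to 22750631, both on the plus strand. They have the same seed and differ by the substitution U17A, counted from 1 at the 5′ end of miR-211-5p. The letters AAAGGGA, which pair with that seed, occurred in the annotated 3′ UTR of 0 of the 9 complement genes. These UTRs are short, between 43 and 599 bases against a median of 993 over tested genes, and among the 4773 tested genes with a 3′ UTR of that length range 3.27% held the letters. The absence says only that these letters are not in these UTRs.

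The total assigned to genes ran from 20282241 read pairs in KO 1 to 36317673 in KO 2, so that 1 CPM, the unit of counts scaled to a common library total, was about 20.3 pairs in the shallowest library. The libraries fell into 2 series by the column names of the study's supplementary gene table, which carry a mouse number for WT 1, WT 2 and KO 1 to KO 3 and an age for WT 3 to WT 5 and KO 4 to KO 6. What else separates the series is not stated. The count of Mir211 was 0 in every library, WT included, so the deletion could not be checked from these counts, and its host gene Trpm1 stood at 430 ± 67.2 CPM in WT (SD, n = 5) and 433 ± 19.1 in KO (SD, n = 6). WT 1 stood apart in the complement genes. It was the highest of 11 libraries for 9 of the 9 complement genes, as it was for 21.4% of all tested genes, and it exceeded 2 times the median of the other 10 libraries for 8 of the 9 (all but C1s1), against 5.83% of all tested genes. Fold changes are therefore given with and without it. Lens genes, crystallins among them, were at 71154 CPM in WT 4, 20644 in KO 3 and 2951 in KO 6, summed over 5 genes, and at most 57.4 in the others. Xist, expressed from the inactive X of females, was at 796 CPM or more in WT 1, WT 3 and WT 5 and at 1.29 or less in the other 8 libraries. WT 3 and WT 5 were below WT 1 for all 9 complement genes, and below both WT 2 and WT 4 for C1ra, C1s1 and Cfb. For C4b they were above both, at 103 and 142 CPM against 76.7 in WT 2 and 98.0 in WT 4. For C1qa, C1qb, C1qc, C3 and Serping1 the order was mixed. The part of sex in the complement values was not tested.

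Compared per length, as the deposited FPKM, C1 inhibitor was the most abundant of the 9 transcripts and factor B the least. The median FPKM over the 11 libraries was 48.4 for Serping1, above 90.5% of tested genes, followed by 21.2 for C4b, 17.8 for C1qa, 17.3 for C1qb and 14.1 for C1qc. C1s1 stood at 11.3, C1ra at 7.18, C3 at 3.58 and Cfb at 2.48, the last above 19.4% of tested genes. Neighbours in this order held their places in 9 to 11 of the 11 libraries, with the exception of C1qa and C1qb, where C1qa was the higher in 5 of 11 and which did not differ beyond their spread. C3 lay below C1ra in 10 of 11 libraries, the exception being WT 1, so in most of these eyes the proteases of the classical pathway had more transcripts per length than the protein on which all branches of the cascade converge.

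Between genotypes, all 9 complement genes had lower fitted levels in KO, and none passed the test. Over all 15767 tested genes 48.9% were lower in KO. With edgeR's likelihood-ratio test and Benjamini-Hochberg adjustment over all tested genes, 0 of 9 had an adjusted p under 0.1, where 0.00634% of tested genes (1 gene, Xist) did, and the adjusted p of every member was 1.00. Without adjustment, 6 of 9 had a p under 0.05, against 2.09% of tested genes, and by edgeR's quasi-likelihood test 3 of 9 did, against 2.83%. The median log2 fold change of the 9 was −0.60, beside 0.00 over all tested genes. Without WT 1 the 9 were still on the lower side, where 48.1% of tested genes lay, the median was −0.23, and 1 of 9 (C3) had an unadjusted p under 0.05, against 1.03% of tested genes. C3, C1ra, C1s1 and Serping1 are on the list of changed genes that the study drew from these same libraries, so their direction is not independent evidence of a change.

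**Figure D1:**
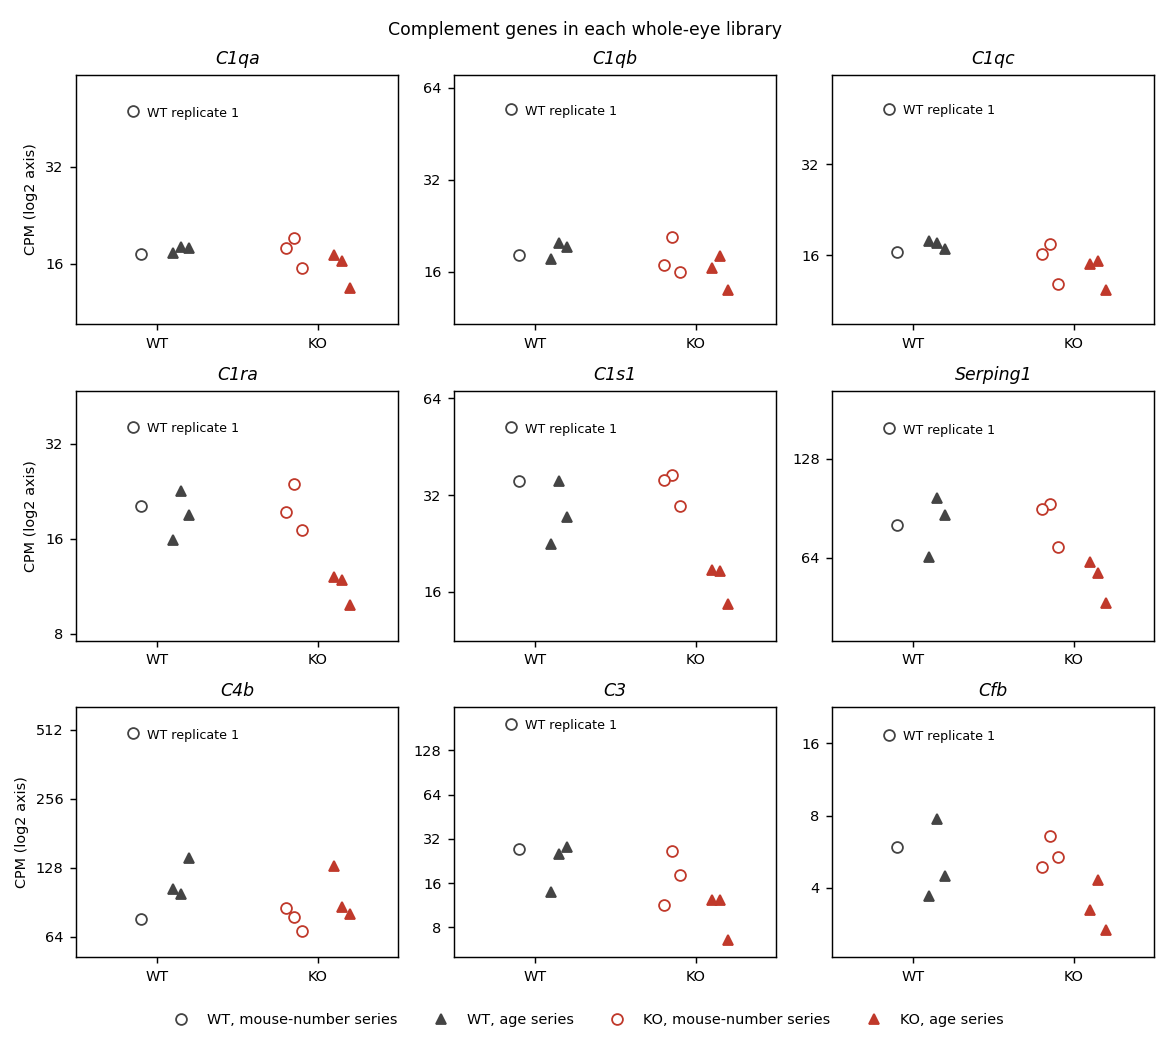
Normalised level of the 9 complement genes in each library, in CPM on a log2 axis, with WT libraries in grey and KO libraries in red, open circles for the mouse-number series and triangles for the age series. The labelled point, WT 1, is the highest in all 9 panels, and the 3 red triangles lie below every grey triangle for C1qa, C1qc, C1ra, C1s1, Serping1 and C3.

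The 3 C1q chains, which form the recognition molecule of the classical pathway, were nearly flat across these eyes except in WT 1. Their genes lie side by side on chromosome 4 of GRCm38, all on the minus strand, with C1qb from 136880129 to 136886187, C1qc from 136889804 to 136893065 and C1qa from 136895917 to 136898803. C1qa measured 47.5 CPM in WT 1, 17.1 in WT 2, 17.2 in WT 3, 18.1 in WT 4 and 17.9 in WT 5. In KO it ran from 13.5 to 19.2 CPM with a median of 16.7. Outside WT 1 the highest library was thus a KO library, KO 1, and the 4 other WT libraries lay within 1 CPM of each other. C1qb, at 54.5 CPM in WT 1, was between 17.6 and 19.9 in the other WT libraries and between 14.0 and 20.9 in KO, with a KO median of 16.6. C1qc, at 48.7 CPM in WT 1, was between 16.4 and 17.9 in the other WT libraries and between 12.3 and 17.5 in KO, with a KO median of 15.2. WT 1 was 2.76 times the median of the other 10 libraries for C1qa, 3.06 times for C1qb and 2.98 times for C1qc.

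The fitted difference of the C1q chains rested on that library. The log2 fold change of KO against WT was −0.51 (SE 0.28) for C1qa, −0.60 (SE 0.30) for C1qb and −0.66 (SE 0.29) for C1qc with all libraries. Without WT 1 it was −0.09 (SE 0.13), −0.14 (SE 0.13) and −0.21 (SE 0.13). For C1qc a two-sided exact permutation of the genotypes over log2 CPM gave p = 0.0108, and p = 0.0619 without WT 1. For C1qb the exact p was 0.0563 and for C1qa 0.113, so that neither passed 0.05, and without WT 1 they were 0.195 and 0.367. In the age series C1qa and C1qc were lower in each KO library than in any WT library, with log2 fold changes of −0.18 (SE 0.16) and −0.29 (SE 0.16), and the KO and WT ranges of C1qb overlapped.

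The chains moved as a block. Across the 11 libraries the ratio of C1qa to C1qb in FPKM stayed between 0.914 and 1.12, and that of C1qc to C1qb between 0.724 and 0.916, WT 1 included. Pearson's r of log2 CPM between the 3 chains was 0.984 to 0.989 over 11 libraries and 0.851 to 0.893 over the 10 libraries without WT 1, given as a description since libraries share depth and tissue composition. Genes of microglia and macrophages stood beside them. The summed CPM of 10 such markers, among them Csf1r, Tyrobp, Trem2 and Cx3cr1, was 253 in WT 1 and 97.5 to 142 in the other 10 libraries. Of the 10 markers 9 were highest in WT 1, as were 21.4% of all tested genes. WT 1 was thus 2.02 times the median of the others for the marker sum. In the age series the sum was 97.5 to 122 in KO and 125 to 129 in WT, without overlap. In the mouse-number series the KO libraries, at 116 to 142, lay on both sides of WT 2 at 125. All 10 markers were detected in every group. Of the 10, 9 had lower fitted levels in KO, against 48.9% of tested genes, and 0 had an unadjusted p under 0.05, against 2.09%. Their median log2 fold change was −0.27 with WT 1 and −0.03 without it. In bulk RNA more cells of a type and more RNA per cell cannot be told apart, and the part of the microglial genes in the C1q values was not tested.

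The C1 proteases and their inhibitor followed another pattern, in which the 3 KO libraries of the age series were low. C1ra lies on chromosome 6 from 124512405 to 124523443 on the plus strand and C1s1 from 124530345 to 124542359 on the minus strand, with 6901 bases between their facing ends. C1ra measured 36.3 CPM in WT 1, 20.3 in WT 2, 15.9 in WT 3, 22.7 in WT 4 and 19.1 in WT 5. In KO it measured 24.0, 17.1 and 19.5 CPM in KO 1 to KO 3 and 11.8, 9.87 and 12.1 in KO 4 to KO 6. The mouse-number KO libraries therefore lay among the WT libraries, whereas the age-series KO libraries lay below all of them. C1s1 measured 51.9, 35.5, 22.5, 35.3 and 27.3 CPM in WT 1 to WT 5. In KO 1 to KO 3 it was at 36.9, 29.6 and 35.6 CPM, and in KO 4 to KO 6 at 18.5, 14.6 and 18.7. The split by series was the same as for C1ra. Serping1, on the minus strand of chromosome 2 from 84765387 to 84775444, measured 159, 80.5, 64.3, 97.3 and 86.2 CPM in WT 1 to WT 5. It was at 93.1, 69.0 and 90.1 CPM in KO 1 to KO 3 and at 57.8, 46.6 and 62.3 in KO 4 to KO 6. Again no age-series KO library reached any WT library, although KO 6 and WT 3 lay close together.

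Over all libraries these differences did not pass. The log2 fold change of KO against WT was −0.54 (SE 0.27) for C1ra, −0.43 (SE 0.29) for C1s1 and −0.48 (SE 0.25) for Serping1, with exact permutation p of 0.0931, 0.177 and 0.115. Without WT 1 the log2 fold changes were −0.31 (SE 0.25), −0.23 (SE 0.28) and −0.23 (SE 0.21), with exact permutation p of 0.210, 0.386 and 0.286. With the series as a covariate, all 11 libraries gave −0.64 (SE 0.18) for C1ra, −0.56 (SE 0.16) for C1s1 and −0.54 (SE 0.19) for Serping1. The adjusted p of edgeR's likelihood-ratio test was then 0.22, 0.263 and 0.395, still above the threshold of 0.1. Unadjusted, all 9 members were then under 0.05, against 6.57% of tested genes, and without WT 1 the 4 members C3, C1ra, C1s1 and Serping1 were, against 3.17%, in a fit added after the data had been seen.

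C1ra passed the adjusted test of genotype in the age series alone, where the other 8 members did not. There it fell to 11.3 ± 1.23 CPM in KO from 19.2 ± 3.42 in WT (SD, n = 3 each), a log2 fold change of −0.76 (SE 0.19) with an adjusted p of 0.0583 by edgeR's likelihood-ratio test. In that series 0.236% of 15659 tested genes passed (37 genes), and 1 of the 9 complement genes. For C1s1 the log2 fold change was −0.71 (SE 0.21, adjusted p = 0.199), for C3 −1.11 (SE 0.35, adjusted p = 0.327) and for Serping1 −0.57 (SE 0.19, adjusted p = 0.408). These 4 were the members with an unadjusted p under 0.05, against 3.96% of all tested genes. In the age series 6 of the 9 complement genes were lower in each KO library than in any WT library, as were 5.98% of all tested genes, and over all 11 libraries 0 of 9 were, against 0.0761%. In the mouse-number series, with 2 WT libraries, C1ra was at −0.49 (SE 0.30), C1s1 at −0.36 (SE 0.22) and Serping1 at −0.51 (SE 0.33). The other 6 members had an unadjusted p under 0.05 there, against 3.32% of tested genes, with C3 at −2.56 (SE 0.76), C4b at −1.89 (SE 0.68), Cfb at −1.06 (SE 0.47) and the C1q chains between −0.88 and −1.07, and WT 1 is 1 of the 2 WT libraries behind these values. Non-overlap in this series was seen for 1 of 9 members (C3), against 10.7% of all tested genes. The difference between the series was itself tested with an interaction term, which 0 of 9 members and 0.019% of tested genes passed. Its value for C1ra was −0.28 (unadjusted p = 0.446), so a larger difference in the age series was not shown. Without WT 2, which leaves WT 1 as the sole WT library of its series, 5 of 9 passed (C4b, C3 and the C1q chains), against 1.43% of tested genes.

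**Figure D2:**
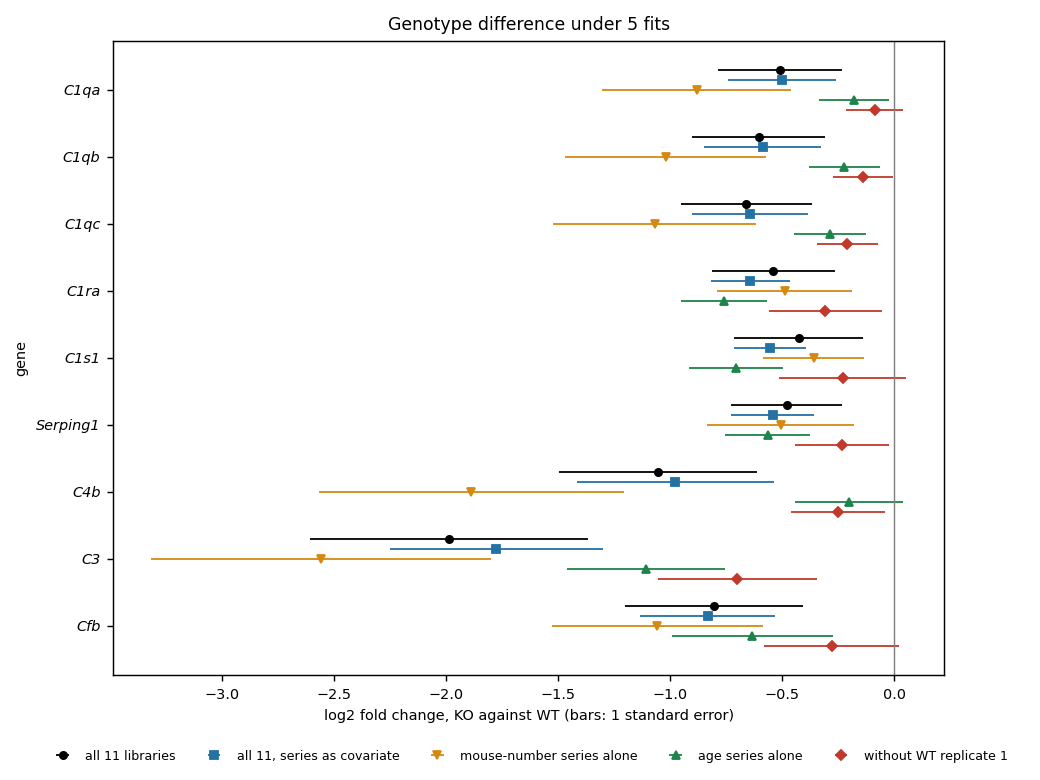
Fitted log2 fold change of KO against WT for each complement gene, with bars of 1 standard error, over all 11 libraries, with the library series as a covariate, in each series alone and without WT 1. Without WT 1 the C1q chains and C4b lie between −0.09 and −0.25, and C1ra, C1s1 and Serping1 between −0.23 and −0.31. Cfb is then at −0.28 and C3 at −0.70. In the mouse-number series the C1q chains and C4b lie far from 0. In the age series, to which WT 1 does not belong, they lie between −0.18 and −0.29. C1ra, C1s1 and Serping1 lie between −0.57 and −0.76 there.

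C1ra, C1s1 and Serping1 also kept close proportions. The ratio of C1s1 to C1ra in FPKM ran from 1.37 to 1.81 and that of Serping1 to C1s1 from 3.71 to 5.33. Pearson's r of log2 CPM between the 3 was 0.938 to 0.973 over 11 libraries and 0.935 to 0.969 without WT 1, as a description. With the C1q chains their r was 0.672 to 0.858, and 0.560 to 0.858 without WT 1, where it reached the r between the chains themselves. The genes whose log2 CPM was most like that of C1ra were Plpp3 (r = 0.991), Rhoj (r = 0.970), Tbxas1 (r = 0.969), Axl (r = 0.968) and Adgre5 (r = 0.967), all over 11 libraries. For the mean of the C1q chains they were Msn (r = 0.982), Pdlim4 (r = 0.977), Ifitm3 (r = 0.973), Socs3 (r = 0.969) and Plat (r = 0.966). Without WT 1 the r of the first group was 0.943 to 0.988 and that of the second 0.672 to 0.922, so likeness to the C1q chains rested more on that library.

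The sum of fibroblast and scleral genes, like the C1 proteases, was lower in each age-series KO library than in any age-series WT library. So was the microglial sum given above. The fibroblast sum was not highest in WT 1, whereas the C1 proteases were. The summed CPM of 8 such genes, Col1a1, Col1a2, Col3a1, Dcn, Lum, Pdgfra, Fbln1 and Thbs2, was between 884 and 1167 in the age-series KO libraries and between 1477 and 3934 in the age-series WT libraries. In the mouse-number series it was 2889, 1868 and 2624 in KO 1 to KO 3 beside 2419 in WT 1 and 2037 in WT 2, so that KO libraries lay on both sides of the WT libraries. All 8 genes were detected, and 8 of 8 had lower fitted levels in KO, against 48.9% of all tested genes. An unadjusted p under 0.05 was reached by 1 of them, against 2.09%, and the median log2 fold change was −0.36. Without WT 1 the median was −0.29, and Lum, at 0.09, was the exception to the lower side. Adipocyte genes were at 32.4 to 47.9 CPM in age-series KO and 52.2 to 177 in age-series WT, without overlap. In the mouse-number series they ran from 31.0 CPM in KO 3, the lowest of all libraries, to 284 in KO 1, and were at 467 in WT 1 and 322 in WT 2. Skeletal muscle genes ran from 831 to 2446 CPM in age-series KO and from 1139 to 5461 in age-series WT, with overlap, and rod genes from 35732 to 39432 and from 29058 to 38846. The part of these tissue genes in the values of C1ra, C1s1 and Serping1 was not tested.

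For the C1 proteases, RefSeq promoters of GRCm38.p6 (250 bases before to 50 after the start) are shown because the genes moved together. C1s1 has a second listed start close by, which is not printed. Capitals in the C1ra line mark TTCCCTGAA, the only match among the 5 complement promoters found in the table (C1qb, C1qc, C1ra, C1s1 and C3) to any of 3 inflammation-linked motifs. This match begins at base 33 counted from the RefSeq start, and so lies downstream of it. Gencode places the start of C1ra at 124512405, upstream of the RefSeq start, so that most of the printed C1ra stretch lies inside the gene by that annotation.
C1ra, chr6:124512371-124512670, plus strand: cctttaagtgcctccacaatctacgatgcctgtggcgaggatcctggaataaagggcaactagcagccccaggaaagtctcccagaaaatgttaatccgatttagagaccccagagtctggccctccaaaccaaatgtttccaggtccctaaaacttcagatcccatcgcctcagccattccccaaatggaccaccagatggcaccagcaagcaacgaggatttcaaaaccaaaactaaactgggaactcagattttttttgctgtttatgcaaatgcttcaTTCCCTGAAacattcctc
C1s1, chr6:124542310-124542609, minus strand: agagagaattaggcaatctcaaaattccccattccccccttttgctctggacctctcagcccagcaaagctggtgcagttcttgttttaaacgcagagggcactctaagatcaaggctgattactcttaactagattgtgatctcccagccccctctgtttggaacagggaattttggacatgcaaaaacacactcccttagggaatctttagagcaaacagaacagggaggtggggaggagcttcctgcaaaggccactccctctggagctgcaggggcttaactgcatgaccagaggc
The motifs, searched on both strands, were the interferon-gamma activated site TTCNNNGAA, found in 8.3% of 32851 promoters of this length and in 1 of 5 members, the interferon-stimulated response element, in 3.44% and 0 of 5, and the NF-kB site, in 0.411% and 0 of 5. The promoters of C1qa, C4b, Cfb and Serping1 are not in the table.

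C4b, C3 and Cfb, which supply the convertases of the cascade, had the largest excess in WT 1 over the median of the other 10 libraries. Over the next highest library the order differed, with Cfb at 2.24 times and the C1q chains at 2.47 to 2.72 times. C4b encodes C4, the first substrate of the C1 proteases, and lies on the minus strand of chromosome 17 from 34728380 to 34743882. It measured 495 CPM in WT 1, 76.7 in WT 2, 103 in WT 3, 98.0 in WT 4 and 142 in WT 5. In KO it ran from 67.7 to 130 CPM with a median of 83.0. WT 1 was thus 5.75 times the median of the other 10 libraries, and without it the ranges overlapped widely, with WT 2 below 5 of the 6 KO libraries. The log2 fold change was −1.05 (SE 0.44, exact permutation p = 0.110) with all libraries and −0.25 (SE 0.21, exact permutation p = 0.300) without WT 1. In the age series it was −0.20 (SE 0.24) and in the mouse-number series −1.89 (SE 0.68), a difference of 1.68 with an unadjusted p of 0.0260 for the interaction (adjusted p = 1.00). The near-identical gene C4a, on the same strand of chromosome 17 from 34809092 to 34823464, was assigned 2.31 to 6.28 CPM. How reads shared by the pair were divided was not tested, and the C4b values are uncertain to that extent.

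C3 was the member with the largest fitted difference. It encodes the central protein of the cascade and lies on the minus strand of chromosome 17 from 57203970 to 57228136. It measured 193 CPM in WT 1, 27.3 in WT 2, 13.8 in WT 3, 25.2 in WT 4 and 28.2 in WT 5, and in KO 26.7, 18.2, 11.4, 12.3, 6.53 and 12.3 from KO 1 to KO 6. WT 1 was 12.1 times the median of the other 10 libraries. Among the others WT 3 lay with the KO libraries and KO 1 with the WT libraries, so the genotypes overlapped. The log2 fold change was −1.99 (SE 0.62), with an exact permutation p of 0.0260, and −0.70 (SE 0.35), with an exact permutation p of 0.0714, without WT 1. Within each series no KO library reached a WT library. Without WT 1 the mouse-number series keeps WT 2 alone, at 27.3 CPM beside 26.7 in KO 1, and 17.4% of tested genes show such non-overlap. Exchange of genotypes only within each series gave an exact permutation p of 0.005, the smallest that this exchange allows, and 0.05 without WT 1, an alternative chosen after the data had been seen. With all libraries but KO 3, KO 4, KO 5 or KO 6, in turn, the exact permutation p of C3 was 0.0556. C3 was 1 of 2 members with an exact permutation p under 0.05 over all libraries, the other being C1qc, against 3.38% of tested genes. Within the series 6 of 9 had such a p (C3, C1ra, C1s1, C1qb, C1qc and Cfb), against 6.92% of tested genes, and without WT 1 none of the 9 had, against 2.03% of tested genes in the free exchange and 2.66% in the exchange within series.

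Cfb was the least abundant of the 9. It lies on the minus strand of chromosome 17 from 34856374 to 34862518, 85 bases from C2, and the readthrough gene Gm20547 that spans both was assigned at most 5 read pairs in a library. It measured 17.4 CPM in WT 1, 5.94 in WT 2, 3.71 in WT 3, 7.78 in WT 4 and 4.48 in WT 5. In KO it ran from 2.67 to 6.58 CPM with a median of 4.60. Outside WT 1 the genotypes overlapped. The log2 fold change was −0.80 (SE 0.40, exact permutation p = 0.156) and without WT 1 −0.28 (SE 0.30, exact permutation p = 0.371).

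**Figure D3:**
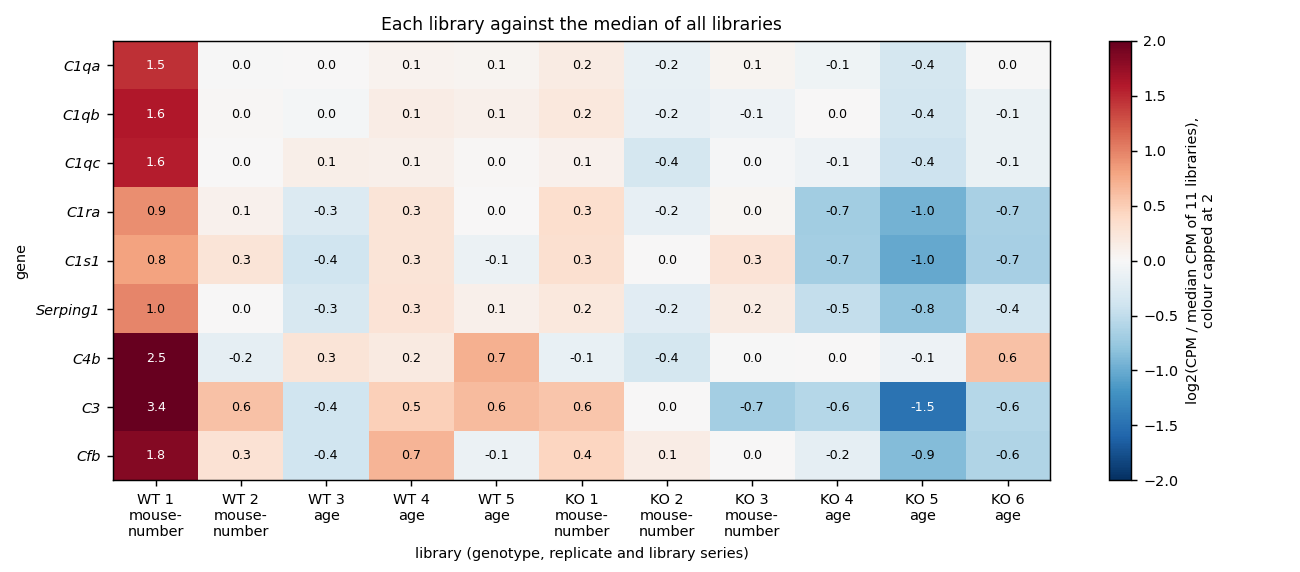
Level of each complement gene in each library as log2 of its CPM over the gene's median in the 11 libraries, with red above and blue below the median and the colour capped at 2. WT 1 is 0.8 to 3.4 above the median in every row, and in the age-series KO libraries C1ra, C1s1 and Serping1 are 0.4 to 1.0 below it while the C1q chains are at most 0.4 below it.

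The proportions between these genes were less fixed than within the C1q chains or the C1 proteases. The FPKM ratio of C3 to Cfb was 4.91 in WT 1 and 0.899 to 2.74 in the other libraries. The ratio of C4b to C1s1 was 6.00 in WT 1, 1.44 to 1.65 in the other 4 libraries of the mouse-number series and 1.75 to 4.43 in the 6 libraries of the age series. C4b thus stood higher against C1s1 in the age series than in the mouse-number series once WT 1 is set aside, in both genotypes. On the WT side the mouse-number series is then WT 2 alone, at 1.44, with WT 4 of the age series at 1.75. The genes whose log2 CPM was most like that of C3 were Ncf1 (r = 0.985), Mrgprf (r = 0.962), Fcgr2b (r = 0.962), Ano6 (r = 0.960) and Plat (r = 0.957) over 11 libraries, with r between 0.841 and 0.979 without WT 1.

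Acute-phase and reactive-glia genes stood beside C3 and C4b in WT 1. Of 10 such genes 9 were tested, among them Gfap and Serpina3n, which mark reactive astrocytes and Müller cells, and the iron-binding acute-phase protein Lcn2. Their summed CPM was 1908 in WT 1 and 498 to 639 in the other 10 libraries. Of these, 9 of the 9 tested genes were highest in WT 1, as were 21.4% of all tested genes. All 9 had lower fitted levels in KO, against 48.9% of all tested genes. Of the 9, 3 had an unadjusted p under 0.05, against 2.09%, and 0 had an adjusted p under 0.1, against 0.00634%. The median log2 fold change was −0.74. Without WT 1 that median was −0.04, and 5 of 9 were on the lower side, against 48.1% of all tested genes. Interferon-induced genes were less separated in WT 1, at 252 CPM there and 139 to 212 in the others, with 5 of 10 genes highest in WT 1. All 10 had lower fitted levels in KO, against 48.9% of all tested genes, and 0 had an unadjusted p under 0.05, against 2.09%. Without WT 1, 9 were on the lower side, against 48.1%. The median log2 fold change was −0.34 and, without WT 1, −0.24, which moved less than the acute-phase median. The sum of rod genes was lowest in WT 1, at 24795 CPM against 29058 to 39432, and that of RPE genes was at 729 CPM against 775 to 978. Sag of the rod list and Rdh5 and Best1 of the RPE list were not lowest in WT 1, whereas the other genes of these lists were. Fat and muscle genes were high in WT 1 as well. The adipocyte sum, 467 CPM there, was 6.32 times the median of the other 10 libraries, against 3.18 times for the acute-phase sum. Of its 6 tested genes 6 were highest in WT 1. The skeletal muscle sum was 8561 CPM in WT 1, 2.94 times that median, and higher still in WT 2 at 8866 and KO 1 at 9554. The part of all these lists in the complement values was not tested.

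**Figure D4:**
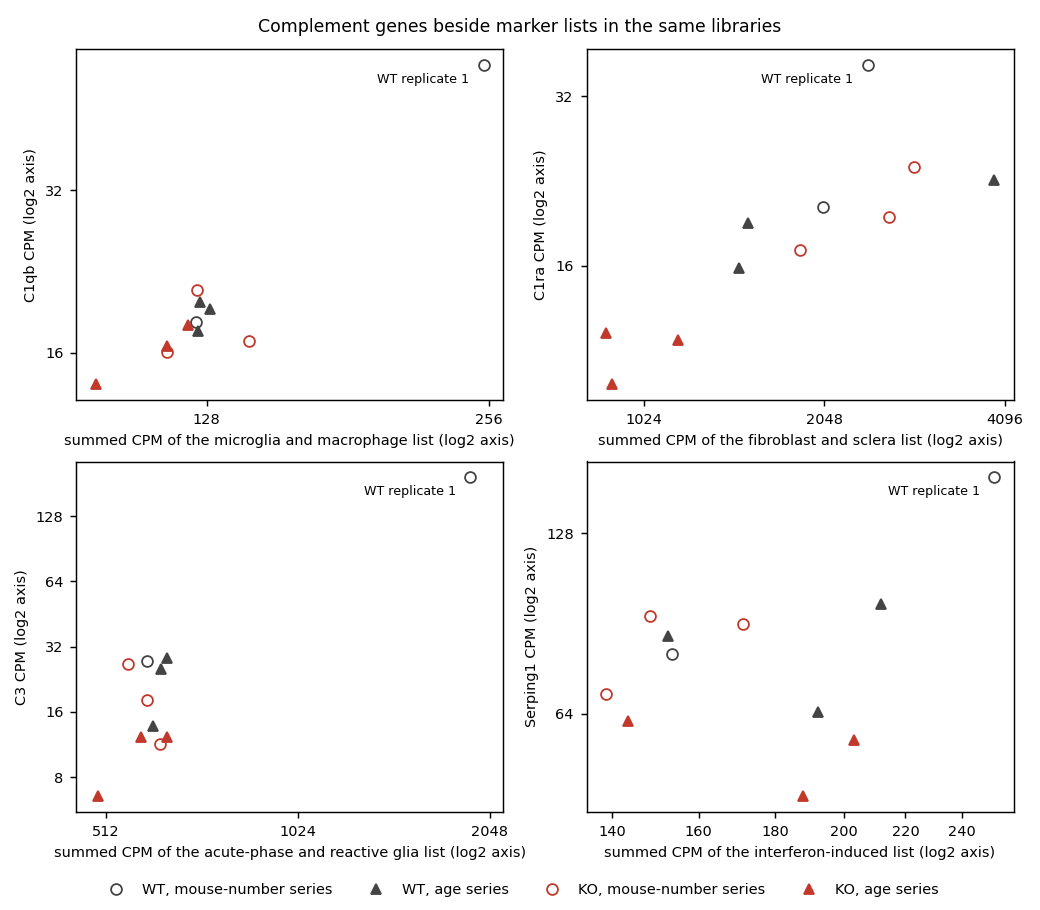
CPM of C1qb, C1ra, C3 and Serping1 in each library against the summed CPM of a list of marker genes in the same library, both on log2 axes, with colours by genotype and shapes by library series. WT 1 stands alone at the upper right for the microglial (253), acute-phase (1908) and interferon-induced (252) sums, whereas against the fibroblast sum it is exceeded by 3 libraries on the horizontal axis and the 3 age-series KO libraries lie at the lower left.

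The rest of the cascade showed no called gene. Of 45 further complement genes 44 are listed in the files, 23 passed the filter and 0 passed an adjusted p of 0.1. Of the 23, 18 had lower and 5 higher fitted levels in KO, where 48.9% of all tested genes were lower. The median log2 fold change was −0.20 (−0.08 without WT 1) beside 0.00 over all tested genes. Mbl1, Mbl2 and Fcnb, recognition proteins of the lectin pathway, had 0 counts in every library. The 2 genes of the 23 with an unadjusted p under 0.05, against 2.09% of all tested genes, were Cfd and C5ar1. C5ar1, the receptor of the anaphylatoxin C5a, was at 1.86 ± 0.411 CPM in WT (SD, n = 5) and 1.25 ± 0.305 in KO (SD, n = 6), with a log2 fold change of −0.57 (SE 0.24, exact permutation p = 0.0108), and −0.42 without WT 1. Cfd, the protease that activates factor B and a major product of fat, was at 42.6 ± 45.9 CPM in WT (SD, n = 5) and 9.83 ± 16.9 in KO (SD, n = 6), with a log2 fold change of −2.12 (SE 0.995, exact permutation p = 0.0736), and −1.24 without WT 1. Its highest libraries were WT 1 at 120 CPM, KO 1 at 43.9 and WT 2 at 43.5, so the genotypes overlapped, and the study had also listed it as changed in these libraries.

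The other genes of the cascade named here, chosen for their abundance, had fitted differences between −0.24 and 0.11 and none passed an unadjusted p of 0.05 in edgeR's test. Clusterin, encoded by Clu, was at 1007 ± 299 CPM in WT and 850 ± 193 in KO (SD, n = 5 and 6), a log2 fold change of −0.24 (SE 0.24), and −0.07 without WT 1. Vitronectin, encoded by Vtn, was at 465 ± 43.0 and 487 ± 48.0 CPM, a log2 fold change of 0.07 (SE 0.14), and 0.04 without WT 1. Both of these inhibit assembly of the membrane attack complex, as does CD59, whose gene Cd59a had a log2 fold change of −0.08 (SE 0.18), and 0.00 without WT 1. Properdin, encoded by Cfp, stabilises the convertase of the alternative pathway and had a log2 fold change of −0.12 (SE 0.13), and −0.05 without WT 1. Susd4, a membrane regulator, was at 0.11 (SE 0.15), and at 0.06 without WT 1. C2, the partner of C4 in the classical convertase and the neighbour of Cfb, was at 25.3 CPM in WT 1, the second lowest of the 11 libraries, and had a log2 fold change of −0.21 (SE 0.14), and −0.29 without WT 1. C2 and the 9 members thus differed in WT 1, where Cfb was 3.72 times and C2 below the median of the other libraries.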

How the data were processed

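Whole-eye RNA of 5 WT and 6 KO mice was sequenced as 100-nt read pairs after TruSeq library preparation. Per the labels and methods, RSEM 1.2.19 was used with Gencode M4 gene models, and the authors deposited an expected count per gene and library, an unscaled estimate of its read pairs that need not be whole. The deposited FPKM values are the authors' scaling of these counts by gene length and library size, and were used for levels between genes. RSEM was run with standard parameters, which do not use the strand.

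Expected counts were rounded, filtered at 1 CPM in at least 5 libraries (3 within a series), scaled by TMM and modelled on genotype alone in edgeR 4.0.16 (R 4.3.3), by glmFit and glmLRT, with Benjamini-Hochberg adjustment over all tested genes and a threshold of 0.1. The study's methods name edgeR's generalized linear models, this filter and this threshold, but no test function. CPM are on TMM-scaled library sizes. Exact permutation of genotypes, two-sided, was run on the log2 CPM (prior count 2) of single genes. The pipeline was tested on simulated data. Each SE is that of the fitted log2 fold change, computed from the model's counts and edgeR's dispersion estimates. Each SD is the spread between the animals of a genotype.

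Libraries were placed in a series by matching their counts to the columns of the study's gene table over 59 genes outside the 9 members. Symbols (95.4% of identifiers) and positions came from Gencode M21, on the same GRCm38 assembly. Genes named in the text are the 9 members, the 8 further complement genes highest in mean FPKM or any of them with an unadjusted p under 0.05, the 5 genes most like C3, C1ra and the C1q mean, and Xist, Trpm1 and Mir211. A gene that this rule also names is not reported here. The members and lists were chosen with earlier results of these data known. Alternatives were the quasi-likelihood test, DESeq2 1.42.0, upper-quartile or no scaling factors, other filters, log2(FPKM + 1), the library series, as covariate or alone, a replicate block, and each library left out.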

Additional observations from a re-analysis of the deposited data

Results flagged for a closer look

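Of 18 groups of libraries tested for an outlying value (9 genes in 2 genotypes), 6 held one. The rule flags about 1 group in 20 by chance, but the 9 genes were measured in the same libraries. The groups are therefore not independent, and the number flagged cannot be compared with that rate. In WT the highest library, WT 1, stood far from the other 4 for C3 at 193 CPM, C1qa at 47.5, C1qb at 54.5, C1qc at 48.7 and C4b at 495. Its gap to the nearest library was 0.845 to 0.969 of the group's whole range for these genes, above the critical value of 0.71. In KO the highest library, KO 6, stood apart for C4b at 130 CPM, with a gap of 0.698 of the range (critical value 0.625). C1ra, C1s1, Cfb and Serping1 were also highest in WT 1 without passing this test.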

How the results depend on the processing

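All 9 complement genes were on the lower side in KO under every fit. Of 198 refits of a member's fold change none reversed and 1 passed where the reported fit did not (C1ra in the age series alone, 1 of 9 members called). Of 126 recomputed exact p-values, 11 moved below and 9 above 0.05. The number of genes called, 1 in the reported fit, was 0 by the quasi-likelihood test and in the mouse-number series alone, 2 by DESeq2 and with a filter of 1 count in any library, 10 with the series as covariate, 37 in the age series alone, and 1 to 11 with 1 library left out (11 without KO 1, 2 without WT 2). Members with an unadjusted p under 0.05, 6 in the reported fit, were 3 by the quasi-likelihood test and 1 to 8 with a library left out, with 1 without WT 1, 2 without KO 5 and 3 without KO 2, KO 4 or KO 6. The series as covariate gave 9, and 4 (C3, C1ra, C1s1 and Serping1) without WT 1, an alternative chosen after the data had been seen. DESeq2 gave no p for C3. Members with an exact p under 0.05, 2 in the reported test, were 6 for exchange within series, 0 for the same without WT 1, 1 on log2(FPKM + 1), and 0 to 5 with a library left out (0 without WT 1, 1 without KO 3, KO 4 or KO 5, 4 without WT 2, 5 without KO 1). Without KO 6 it stayed at 2, with C4b in place of C3. Other complement genes on the lower side were 32 rather than 18 with the filter of 1 count in any library, which tests more of them. Acute-phase genes on the lower side were 5 to 9 with a library left out (5 without WT 1). Members with an interaction of genotype and series were 0 in the reported fit and 0 to 5 with a library left out (5 without WT 2). With the replicate number as a block, which drops KO 6, 10 genes and 5 members (unadjusted p) passed. The numbers do not pair the samples, since the 5 same-numbered pairs had correlations of −0.332 to 0.633 and 3 of them were above 0.1, and not every library correlated best with its own number. The limits are the 11 animals, 2 WT libraries in the mouse-number series, the unequal sexes, and amounts of muscle, fat, scleral and lens transcripts that varied between libraries. In the WT group 1 library, WT 1, sets the C1q and C4b differences. Without it the log2 fold change of C3 went from −1.99 to −0.70 and that of Cfb from −0.80 to −0.28. Those of C1ra, C1s1 and Serping1 were also smaller without it. For Cfb the depth is also low, at 2.67 CPM in KO 5.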
